A study of Mus musculus with 24 samples.

Results

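The change in RNA between the 2-cell and the 4-cell stage was measured in mouse embryos that overexpressed KDM6B, a demethylase acting on lysine 27 of histone H3 (H3K27). The genes described are those with at least 1 FPKM (fragments per kilobase of transcript, scaled to sequencing depth) in both libraries of either stage, 12156 of the 46078 genes listed. Of these members, 8534 passed at both stages, 2011 at the 4-cell stage alone and 1611 at the 2-cell stage alone. At the edge of the rule stood Egln3 (0 and 0.285 FPKM at the 4-cell stage, 1.0 and 1.16 FPKM at the 2-cell stage) just inside, and Ppm1k (1.11 and 0.999 FPKM at the 4-cell stage, 0.201 and 0.205 FPKM at the 2-cell stage) just outside.

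The study profiled 24 libraries of embryos and oocytes to ask how loss of histone H3K27 methylation or of H2A ubiquitination alters the transcriptome. The embryos described here came from wild-type B6/DBA females mated with wild-type PWK males, and 4 libraries carried the KDM6B OE label, 2 at the 4-cell stage and 2 at the 2-cell stage. The series describes embryos overexpressing KDM6B as depleted of H3K27me3. Set beside them were 4 KDM6B CTR libraries, 4 PR-DUB OE libraries and 4 PR-DUB CTR libraries, each with 2 at the 4-cell and 2 at the 2-cell stage and from the same cross. PR-DUB is the complex that removes ubiquitin from histone H2A. Each KDM6B OE 2-cell library held 17 pooled embryos, while no number was given for the 4-cell libraries. The labels say neither what the CTR embryos carried nor whether replicates were collected separately, so p-values below measure only the spread between these libraries. For the KDM6B OE 2-cell libraries the title names KDM6B and another label field names a PR-DUB overexpression, and the title was followed. In bulk RNA of this kind, fewer cells expressing a gene and less RNA per cell cannot be told apart.

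A mouse embryo begins with RNA stored in the oocyte. Most of this maternal RNA is destroyed around the 2-cell stage, at which the embryo's own genome is activated in a burst of transiently expressed genes. By the 4-cell stage the embryo transcribes the genes of its basic machinery and the first regulators of lineage. Methylation of H3K27 is written by the complex PRC2 and removed by KDM6A and KDM6B. It marks silent developmental genes and, when inherited from the oocyte, keeps the maternal copy of some genes silent.

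Kdm6b itself (chromosome 11, 69398508 to 69413675, mm10) checks the labels in part. In the KDM6B OE embryos 597 and 547 FPKM were measured at the 4-cell stage, against 14240 and 9809 FPKM at the 2-cell stage. It was as high in KDM6B CTR embryos, at 571 and 401 FPKM at the 4-cell stage and 14590 and 14740 FPKM at the 2-cell stage, so its RNA does not separate OE from CTR. In the PR-DUB OE libraries Kdm6b stood at 7.36 and 6.32 FPKM at the 4-cell stage and at 26.4 and 25.1 FPKM at the 2-cell stage. All 4 KDM6B OE libraries therefore carried Kdm6b RNA far above the PR-DUB libraries, and in each set of embryos it was lower at the 4-cell stage. Its log2 change of -4.37 ± 0.18 (SE) in KDM6B OE embryos was called (adjusted p = 7.17e-09, limma). RNA of the embryos' own Kdm6b gene and RNA supplied for overexpression were not told apart. The change of the embryos' own gene therefore cannot be read from these values.

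The depth of each library is not listed. If the smallest step of FPKM times length is 1 fragment, the KDM6B OE libraries hold about 20500000 and 17100000 fragments at the 4-cell stage and 18800000 and 20100000 at the 2-cell stage. A gene of 2 kb at 1 FPKM would then rest on 34.2 to 41 fragments, a number that covers counting error only. Replicates correlated across 15055 tested genes at r = 0.962 at the 4-cell stage and r = 0.971 at the 2-cell stage. The 7SL and 7SK RNAs took 15.7% and 14.2% of all FPKM at the 4-cell stage, against 4.49% and 4.50% at the 2-cell stage, and Kdm6b took 0.0846% and 0.0783% against 2.97% and 1.97%. The FPKM of a gene depends on the other RNAs of its library. Total FPKM was 706040 and 698600 at the 4-cell stage, against 479330 and 497140 at the 2-cell stage. A second scaling was therefore run: median-of-ratios rescaling lowered the median log2 change of all genes tested by 0.17, to 0.02, against 0.18 as deposited. Summed levels of gene lists below are as deposited. The 2-cell libraries were sequenced on a NextSeq550 and the KDM6B 4-cell libraries on a NextSeq550/HiSeq2000, per the labels, so the stage and this split cannot be told apart in KDM6B embryos. The PR-DUB libraries of both stages do not cross it.

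Changes are differences of log2(FPKM + 1), 4-cell minus 2-cell, tested with limma across 15055 genes, and a gene is called higher or lower at an adjusted p under 0.05. In KDM6B OE embryos 4836 members were higher at the 4-cell stage and 3590 were lower, where 59.3% of all genes tested were called, 34% as higher and 25.4% as lower. With a change of at least 2-fold also required, 3780 members were higher and 2694 lower, against 25.7% and 18.3% of all genes tested. After rescaling the called members split evenly, into 4189 higher and 4174 lower. The members at 1 FPKM in 1 stage alone had their direction largely set by the rule, so the 8534 present at both stages describe the change better. Of these, 3168 (37.1%) were higher and 2357 (27.6%) lower, 2252 and 1677 by at least 2-fold. Genes expressed at both stages were thus called in both directions, at shares near those of all genes tested. Their split is given as deposited only. The libraries of the 2 stages did not overlap for 77.3% of all genes tested.

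The 12 largest rises were taken among called genes whose stages do not overlap, at most 2 of them sharing the first 4 letters of their symbols. They belonged to genes of varied function, with Hand1 first. Hand1 (chromosome 11, 57828705 to 57832818), a transcription factor needed for trophoblast giant cells, stood at 105 and 56.3 FPKM at the 4-cell stage and was listed at 0 in both 2-cell libraries, a log2 change of 6.28 ± 0.27 (adjusted p = 1.15e-08, limma). Klf2 (chromosome 8, 72319033 to 72321656), a Krüppel-like factor of the naive pluripotency network, stood at 113 and 76.9 FPKM at the 4-cell stage, against 1.01 and 2.69 FPKM at the 2-cell stage, 51.4-fold higher by the ratio of means (log2 change 5.12 ± 0.28, adjusted p = 5.08e-08). Bhmt (chromosome 13, 93616675 to 93637961), which remethylates homocysteine with betaine, stood at 66.1 and 71.5 FPKM against 0.678 and 0.414 FPKM. That the stages do not overlap was set by the choice. Of these 12 genes, Klf2 and Isyna1 alone passed 1 FPKM at both stages. The others became members through the 4-cell stage alone, so the rule largely set their direction and their low 2-cell level. Hand1, Klf2 and Bhmt each stood above 50 FPKM at the 4-cell stage.

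Tufm, the mitochondrial translation elongation factor, stood at 41.1 and 36.6 FPKM at the 4-cell stage and at 0.512 and 0.117 FPKM at the 2-cell stage. Anpep, an aminopeptidase of the cell surface, stood at 38.6 and 34.6 FPKM against 0.641 and 0.110 FPKM. Lsm5, a subunit of the LSM ring that binds U6 RNA, stood at 48.9 and 39.7 FPKM against 0 and 2.00 FPKM. The others with the largest rises were Isyna1, the enzyme that starts inositol synthesis, Ckmt1, a mitochondrial creatine kinase, Slc6a8, the creatine transporter, Umps, which completes UMP synthesis, and the predicted genes Gm5096 and Gm10130. Their log2 changes ran from 4.45 (Umps) to 5.48 (Gm5096). Slc6a8 stood at 26.2 and 24.9 FPKM against 0.0813 and 0.226 FPKM, and Ckmt1 at 22.6 and 25.9 FPKM against 0 and 0.184 FPKM. Both act on creatine, but they were paired here after their values were seen, and no list of creatine genes was examined. Their log2 changes were 4.53 and 4.53 in KDM6B OE embryos and 5.84 and 4.67 in KDM6B CTR embryos.

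Among the 12 largest falls, chosen in the same way, were many oocyte transcripts and Kdm6b, whose own and supplied RNA were not told apart. Zbed3 (chromosome 13, 95323612 to 95337841), a component of the subcortical maternal complex, stood at 28.6 and 33.5 FPKM at the 4-cell stage, against 1461 and 1062 FPKM at the 2-cell stage, 40.7-fold lower (log2 change -5.29 ± 0.15, adjusted p = 5.23e-10, limma). The oocyte-secreted protein gene Oosp1 stood at 9.41 and 14.5 FPKM against 250 and 220 FPKM, and Oosp3 at 0 and 0.946 FPKM against 25.5 and 24.2 FPKM. Tcl1b4 and Tcl1b1, oocyte-expressed relatives of Tcl1, stood at 1.11 and 0.847 FPKM against 46.1 and 49.1 FPKM and at 4.35 and 3.66 FPKM against 118 and 109 FPKM. Reads of such near-identical neighbours may be divided between them. Sebox, an oocyte homeobox gene, Dusp7, a phosphatase of MAP kinases, Smagp, Mfap2 and AU015836 had log2 changes of -4.12 (Mfap2) to -4.25 (Sebox). The histone gene Hist2h2aa1 completed the 12 with the largest log2 change of all, -6.43 ± 1.36 (adjusted p = 0.00139, limma). It stood at 0.00818 and 4.09 FPKM against 204 and 185 FPKM, so its 4-cell replicates lay far apart, and reads may be divided with its near-identical copy Hist2h2aa2, which was not called (71.3 and 48.5 FPKM against 74.1 and 56.8 FPKM). Every one of these 12 genes was at least 19.3-fold lower at the 4-cell stage. Hist2h2aa1, Tcl1b4, Oosp3 and Mfap2 passed 1 FPKM at the 2-cell stage alone, so the rule largely set their direction.

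**Figure D1:**
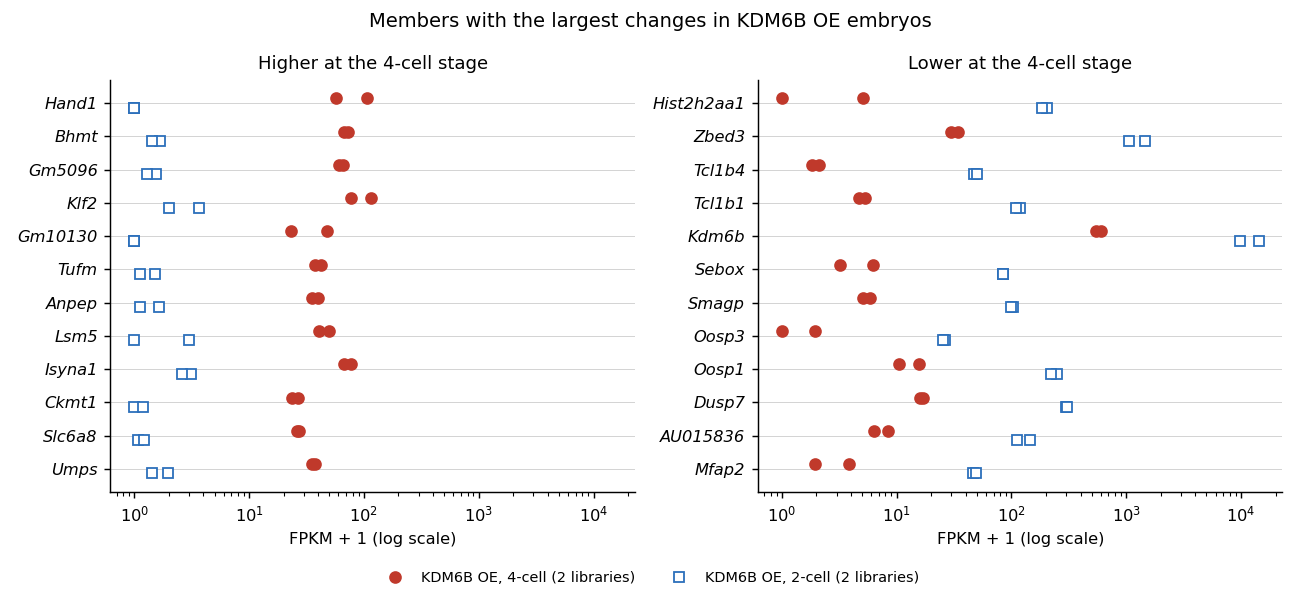
FPKM + 1 on a log axis for the 12 protein-coding members with the largest rises (left) and the 12 with the largest falls (right) in KDM6B OE embryos, with red circles for the 2 libraries at the 4-cell stage and open blue squares for the 2 at the 2-cell stage. The stages do not overlap for any of these genes, which were chosen by that rule, at most 2 of them sharing the first 4 letters of their symbols. Kdm6b is the gene with the highest level, 597 and 547 FPKM at the 4-cell stage against 14240 and 9809 FPKM at the 2-cell stage.

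The upstream sequence was looked at for what the changing genes share. RefSeq promoters (GRCm38.p6, 250 bases before the start to 50 after it) were found for 2309 of 2884 protein-coding members that were at least 2-fold higher and for 1935 of 2405 that were at least 2-fold lower. The motif CCGGAAGT, bound by ETS-family factors, was searched on both strands and lay in 12.7% of the promoters of the higher members, in 4.25% of those of the lower members, in 8.91% of the other protein-coding members and in 3.89% of all 32851 promoters of the table. Without ribosomal protein genes the share among the higher members was 12.6%. The nuclear receptor motif TCAAGGTCA, also searched on both strands, lay in 0.424% of the higher, 0.115% of the lower and 0.423% of all promoters. In all, 8 motifs were searched on both strands. The GC box GGGGCGGGG of KLF and SP factors lay in 18.2% of the higher, 23.1% of the lower, 22.4% of the other members and 11.4% of all promoters. The YY1 motif lay in 2.58% of the higher, 1.45% of the lower, 2.22% of the other members and 0.852% of all promoters. For the remaining 4, the shares in higher and lower members were 6.72% and 5.44% for GGATTA, bound by OBOX homeodomains, 2.16% and 2.3% for the NRF1 motif, 7.74% and 7.43% for the TATA motif TATAAA, and 36.1% and 38.7% for CCAAT. In all promoters these 4 lay at 7.06%, 0.971%, 13.6% and 37.4%, in the same order. A match describes these letters and is not a binding site, and no test was run on the shares. The promoters of 3 genes among the largest rises that hold one of the first 2 motifs, in capitals, and of Oosp1, a large fall with neither, read as follows, each 5′ to 3′ on the gene's strand.
Tufm, chr7:126487105-126487404, plus strand: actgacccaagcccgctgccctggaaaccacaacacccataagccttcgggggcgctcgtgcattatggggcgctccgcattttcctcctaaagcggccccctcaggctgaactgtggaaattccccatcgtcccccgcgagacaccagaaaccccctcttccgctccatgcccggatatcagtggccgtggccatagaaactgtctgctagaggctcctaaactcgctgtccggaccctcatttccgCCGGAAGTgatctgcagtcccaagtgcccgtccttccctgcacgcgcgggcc
Lsm5, chr6:56704650-56704949, minus strand: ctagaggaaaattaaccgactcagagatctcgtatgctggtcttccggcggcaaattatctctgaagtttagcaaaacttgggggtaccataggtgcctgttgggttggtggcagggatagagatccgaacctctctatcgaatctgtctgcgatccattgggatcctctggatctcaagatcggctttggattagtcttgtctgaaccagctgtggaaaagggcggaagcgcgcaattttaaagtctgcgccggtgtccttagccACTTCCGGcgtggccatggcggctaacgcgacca
Bhmt, chr13:93637709-93638008, minus strand: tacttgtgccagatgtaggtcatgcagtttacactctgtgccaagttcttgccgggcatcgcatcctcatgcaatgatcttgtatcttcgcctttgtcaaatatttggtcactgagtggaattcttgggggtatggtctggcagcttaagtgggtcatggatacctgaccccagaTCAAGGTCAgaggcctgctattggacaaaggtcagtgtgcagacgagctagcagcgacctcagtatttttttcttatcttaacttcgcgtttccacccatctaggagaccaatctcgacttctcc
Oosp1, chr19:11691002-11691301, minus strand: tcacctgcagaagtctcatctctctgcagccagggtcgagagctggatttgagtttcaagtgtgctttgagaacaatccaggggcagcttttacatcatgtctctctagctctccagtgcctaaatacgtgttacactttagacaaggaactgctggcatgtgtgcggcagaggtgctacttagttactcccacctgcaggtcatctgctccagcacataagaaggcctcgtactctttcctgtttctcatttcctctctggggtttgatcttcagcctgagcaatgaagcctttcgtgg
In Tufm the match begins 2 bases before the start, in Lsm5 16 bases after it and on the other strand, and in Bhmt 75 bases before it. The Oosp1 promoter is also the poorest of the 4 in CpG, with 0.275 of the CpG count that its base composition gives, against 0.778 in Tufm, 0.897 in Lsm5 and 0.463 in Bhmt. These 4 do not stand for their sets: the median was 0.775 in the higher members, 0.717 in the lower members and 0.384 in all promoters.

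Genes of the basic machinery rose together. Of 81 cytosolic ribosomal protein genes 80 were higher at the 4-cell stage and 0 lower, with a median log2 change of 2.13, or 1.86 after rescaling, where all members had a median of 0.27, or 0.05 after rescaling. In this and the following lists, a member that passed 1 FPKM at 1 stage alone had its direction largely set by the rule, so counts are also given for members that passed at both stages where the others make a difference. All 81 ribosomal protein genes passed at both. Summed over the list, they gave 26260 and 24620 FPKM at the 4-cell stage, against 5802 and 7151 FPKM at the 2-cell stage. The largest rise was that of Rpl37a, with 167 and 192 FPKM against 7.59 and 10.7 FPKM (log2 change 4.17 ± 0.25, adjusted p = 7.71e-08, limma). Rpl14 (210 and 178 FPKM against 9.58 and 10.1 FPKM) and Rpl38 (328 and 289 FPKM against 13.3 and 21.0 FPKM) followed it. Many ribosomal protein genes have processed pseudogenes, and 566 of 849 processed pseudogene members were themselves called higher and 81 lower, so the division of reads between copies is uncertain.

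Of 68 ribosome biogenesis factors 57 were higher and 2 lower (median 1.35). Wdr74 and Ftsj3, which act in maturation of the large subunit, stood at 92.0 and 96.7 FPKM against 7.09 and 11.7 FPKM and at 84.4 and 87.2 FPKM against 7.73 and 11.2 FPKM. The 2 that fell were the kinase gene Riok1 and Dkc1, the pseudouridine synthase of box H/ACA particles. Of 37 translation initiation factors 30 were higher and 0 lower (median 1.21), led by Eif3e, a subunit of the eIF3 complex, with 131 and 115 FPKM against 4.85 and 8.84 FPKM. After rescaling 27 of them were higher and 2 lower. Of 40 spliceosome genes 36 were higher and 0 lower (median 1.23), with Lsm5 first and Eftud2, the GTPase of the U5 particle, at 21.2 and 22.5 FPKM against 1.18 and 2.89 FPKM. As deposited, no ribosomal protein, initiation factor or spliceosome gene of these lists was called lower in KDM6B OE 4-cell embryos.

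Protein breakdown and respiration moved the same way. Of 36 proteasome genes 33 were higher and 2 lower (median 1.91). Psma6, a subunit of the 20S core, stood at 100 and 90.3 FPKM against 5.52 and 7.43 FPKM. The exceptions were Psme4, which encodes the activator PA200 and stood at 66.5 and 69.2 FPKM against 205 and 226 FPKM, and the assembly factor Psmg1, which lost its call when either 2-cell library or 4-cell replicate 2 was left out and stood at 3.79 and 0.728 FPKM against 5.93 and 6.33 FPKM. Of 75 nuclear genes for oxidative phosphorylation subunits 64 were higher and 1 lower, Ndufa2 (median 1.64), and of the 60 that passed at both stages 49 were higher and 1 lower. Cox7c, a subunit of cytochrome c oxidase, stood at 53.3 and 59.5 FPKM against 1.43 and 4.21 FPKM, and Ndufa12, of complex I, at 17.5 and 23.6 FPKM against 0 and 0.942 FPKM. All 13 mRNAs encoded in mitochondrial DNA were also higher as deposited (median 0.94), and together gave 39150 and 44630 FPKM at the 4-cell stage against 21360 and 21840 FPKM at the 2-cell stage. After median-of-ratios rescaling 11 of them were higher and 0 lower (median 0.67), and of the 75 nuclear genes 57 were higher and 1 lower (median 1.39). Nuclear and mitochondrial genes of the respiratory chain were both higher at the 4-cell stage, the nuclear ones by the larger median.

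Sugar and sterol genes showed no common direction. Of 17 glycolysis and lactate genes 4 were higher and 5 lower, or 3 and 3 of the 13 that passed at both stages. The higher ones were the hexokinase genes Hk1 and Hk2, the phosphoglycerate mutase gene Pgam1 and Pdha1, of pyruvate dehydrogenase, with Hk1 at 18.1 and 15.3 FPKM against 0.525 and 1.33 FPKM and Hk2 at 7.99 and 11.8 FPKM against 1.53 and 1.23 FPKM. The pyruvate kinase gene Pkm was lower, at 9.52 and 9.39 FPKM against 38.2 and 42.7 FPKM, as was the triosephosphate isomerase gene Tpi1, at 0.789 and 0.446 FPKM against 5.78 and 5.53 FPKM. The glucose transporter gene Slc2a1 fell as well, to 0.0452 and 1.12 FPKM, against 4.6 and 2.93 FPKM. Of 19 cholesterol genes 3 were higher and 8 lower (2 and 5 of the 13 at both stages), with Sqle, which makes squalene epoxide, at 14.9 and 20.4 FPKM against 59.3 and 48.6 FPKM. Of 17 integrated stress response genes 4 were higher and 6 lower (2 and 6 of the 15 at both stages), and among them the serine synthesis gene Phgdh rose to 43.2 and 39.7 FPKM, against 0.415 and 1.92 FPKM, while the folate gene Mthfd2 fell to 12.2 and 10.8 FPKM, against 59.0 and 56.4 FPKM. Single enzymes of these pathways thus changed several-fold in opposite directions.

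Of 15 heat shock members 8 were higher and 4 lower, or 7 and 5 after rescaling. The constitutive chaperone gene Hspa8 stood at 1150 and 1145 FPKM at the 4-cell stage, against 217 and 220 FPKM at the 2-cell stage, and Hsp90ab1 at 856 and 919 FPKM against 227 and 224 FPKM. The stress-inducible Hspa1a and Hspa1b, which are among the first genes transcribed by mouse embryos, fell to 3.56 and 3.82 FPKM and to 3.35 and 4.78 FPKM, against 22.9 and 24.9 FPKM and 35.3 and 32.7 FPKM. These 2 are near-identical copies, so reads may be divided between them. Of 18 p53 target genes 8 were higher, led by Bax, which permeabilises mitochondria (13.2 and 18.3 FPKM against 1.297 and 0.881 FPKM), and 6 lower, led by Rrm2b, a ribonucleotide reductase subunit (17.9 and 14.7 FPKM against 142 and 126 FPKM). After rescaling 6 were higher and 6 lower, and of the 13 that passed at both stages 6 were higher and 4 lower as deposited.

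**Figure D2:**
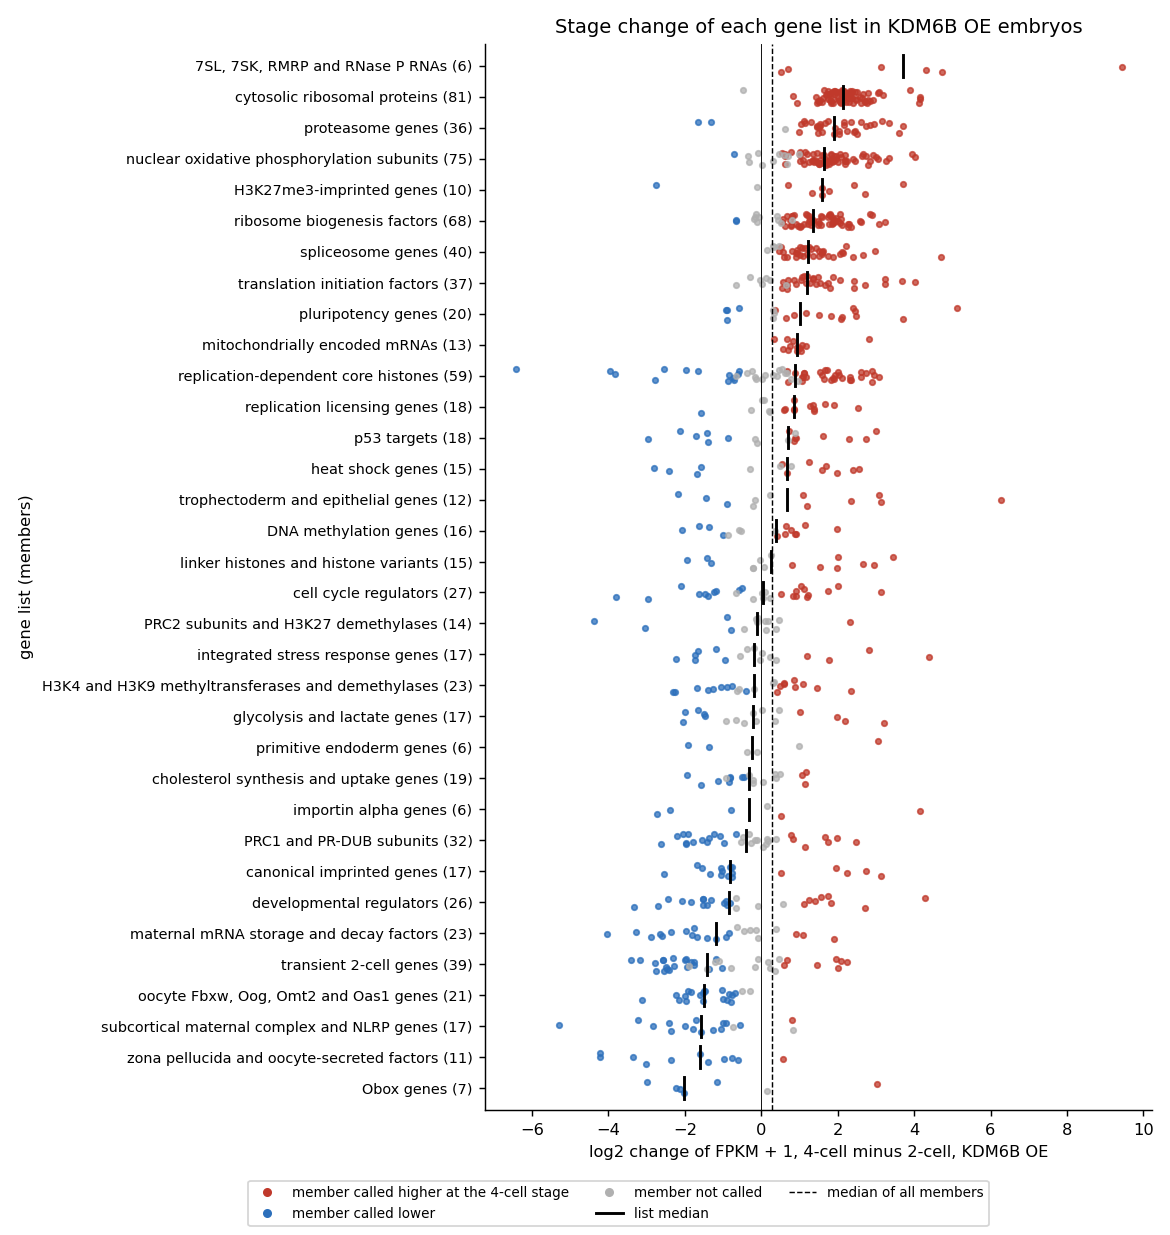
Log2 change of FPKM + 1, 4-cell minus 2-cell, in KDM6B OE embryos for the members of each gene list with at least 5 members, ordered by list median; each point is a gene, red if called higher, blue if called lower and grey if not called, the bar is the list median and the dashed line the median of all members (0.27). Lists of ribosomal, proteasomal and respiratory genes lie to the right of the dashed line and lists of oocyte genes and transient 2-cell genes to the left.

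Most listed transcripts of the oocyte fell. Of 17 members from the subcortical maternal complex and NLRP genes 14 were lower and 1 higher (median log2 change -1.57), all 17 at 1 FPKM or more at both stages, and their summed level was 159 and 180 FPKM at the 4-cell stage, against 1947 and 1488 FPKM at the 2-cell stage. Of 11 zona pellucida and oocyte-secreted genes 10 were lower (median -1.61), 7 of the 8 that passed at both stages, among them the growth factor gene Bmp15 with 12.7 and 14.1 FPKM against 163 and 131 FPKM. The exception was Zp3, at 20.7 and 20.8 FPKM against 12.6 and 14.6 FPKM, whose call was lost under either rescaling and without any 1 of the 4 KDM6B OE libraries. Of 21 oocyte genes of the Fbxw, Oog, Omt2 and Oas1 families 19 were lower and 0 higher (median -1.49), or 16 and 0 of the 18 that passed at both stages, led by Oog3 with 48.9 and 53.6 FPKM against 481 and 433 FPKM. These families hold close copies, so the values of single copies are uncertain.

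Of 23 factors for storage and decay of maternal mRNA 14 were lower and 3 higher (median -1.20), or 13 and 3 of the 21 that passed at both stages. Btg4, the adaptor that brings the CCR4-NOT deadenylase to maternal mRNA, stood at 36.9 and 29.3 FPKM at the 4-cell stage, against 591 and 518 FPKM at the 2-cell stage (log2 change -4.03 ± 0.15, adjusted p = 5.48e-09, limma). Cnot6l, a deadenylase subunit, stood at 5.70 and 6.46 FPKM against 72.7 and 61.9 FPKM, and Ybx2, which packages oocyte mRNA, at 8.91 and 10.9 FPKM against 85.5 and 73.3 FPKM. The 3 higher members were Paip2, Zcchc6 and Zfp36l2. Paip2, a repressor of poly(A)-binding protein, rose to 138 and 110 FPKM, against 30.2 and 33.9 FPKM. Zcchc6, which adds uridines to mRNA tails, rose to 26.6 and 22.7 FPKM, against 10.6 and 11.3 FPKM. Zfp36l2, which binds AU-rich elements and recruits deadenylases, rose to 15.4 and 21.2 FPKM, against 12.01 and 6.88 FPKM.

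Genes that are switched on briefly at the 2-cell stage mostly fell. Of 39 such members 21 were lower and 7 higher (median -1.41), or 20 and 7 of the 37 that passed at both stages. AF067061 stood at 10.2 and 7.59 FPKM at the 4-cell stage, against 131 and 80.7 FPKM at the 2-cell stage, and Tcstv3, of a 2-cell-specific family, at 13.6 and 4.82 FPKM against 69.3 and 57.1 FPKM. The Trim43 genes rose instead: Trim43b stood at 532 and 529 FPKM against 120 and 141 FPKM, Trim43a at 339 and 309 FPKM against 57.8 and 79.5 FPKM, and Trim43c at 158 and 124 FPKM against 30.1 and 34.6 FPKM. With these genes included, the summed levels of the list overlapped between the stages, with 1900 and 1967 FPKM at the 4-cell stage against 2035 and 1601 FPKM at the 2-cell stage. Of the 7 Obox homeobox genes, which act in genome activation, 5 were lower and 1 higher: Obox5 stood at 11.9 and 14.4 FPKM against 130 and 93.9 FPKM, and Obox8 at 347 and 249 FPKM against 27.6 and 44.2 FPKM. Most members of both families fell while a few abundant ones rose.

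The first lineage regulators were mixed. Of 20 pluripotency genes 13 were higher and 4 lower (median 1.02), or 10 and 4 of the 17 that passed at both stages, and none of the 4 fell by 2-fold or more. Besides Klf2, Tdgf1, a co-receptor for Nodal, stood at 14.3 and 13.0 FPKM at the 4-cell stage, against 0.139 and 0.103 FPKM at the 2-cell stage, and Nanog, chosen here after its values were seen, at 4.06 and 6.86 FPKM against 0 and 0.316 FPKM. Pou5f1, which encodes OCT4, was lower, with 50.3 and 53.5 FPKM against 105 and 90.8 FPKM (log2 change -0.90 ± 0.24, adjusted p = 0.00589, limma), and so were Lin28a, Tbx3 and Klf4. Of 12 trophectoderm and epithelial genes 6 were higher and 3 lower, or 3 and 3 of the 9 that passed at both stages: Tead4, the partner of YAP1, stood at 52.7 and 36.6 FPKM against 3.02 and 6.11 FPKM, while Yap1 itself stood at 71.1 and 66.6 FPKM against 326 and 304 FPKM. Of 6 primitive endoderm genes Gata6 alone was higher, having passed at the 4-cell stage alone, at 9.69 and 7.11 FPKM against 0.166 and 0.0932 FPKM, and Dab2 and Lamc1 were lower.

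Histone genes changed in both directions. Of 15 linker histones and histone variants 7 were higher and 3 lower (median 0.25), or 6 and 4 after median-of-ratios rescaling (median -0.01). Among linker histones, the abundant Hist1h1a fell to 422 and 326 FPKM at the 4-cell stage, against 1521 and 1334 FPKM at the 2-cell stage, and the oocyte form H1foo fell to 7.51 and 13.0 FPKM, against 28.5 and 23.7 FPKM. Hist1h1b rose to 165 and 59.9 FPKM, against 8.94 and 7.51 FPKM, Hist1h1c to 146 and 117 FPKM, against 17.5 and 14.9 FPKM, and Hist1h1d to 118 and 89.1 FPKM, against 17.3 and 13.6 FPKM. Of 59 replication-dependent core histone genes 31 were higher and 13 lower (median 0.88), or 26 and 10 of the 51 that passed at both stages. After either rescaling 28 of the 59 were higher and 15 lower. Hist1h2ao stood at 40.5 and 18.5 FPKM against 2.07 and 2.72 FPKM and Hist3h2a at 0.519 and 0.684 FPKM against 21.98 and 21.8 FPKM. The summed level of the core histone genes was 3159 and 1865 FPKM at the 4-cell stage and 2279 and 2212 FPKM at the 2-cell stage, so the 4-cell replicates lay on either side of the 2-cell ones. Core histone genes share long stretches of sequence, and single members are uncertain.

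Replication and cell cycle genes included some large changes. Of 18 replication licensing genes 12 were higher and 1 lower (median 0.85), with Mcm7, of the replicative helicase, at 34.7 and 37.3 FPKM against 5.40 and 5.50 FPKM. Of 27 cell cycle regulators 11 were higher and 10 lower, or 9 higher and 12 lower after rescaling. Wee2, the oocyte form of the kinase that holds back CDK1, fell to 9.95 and 14.8 FPKM, against 196 and 169 FPKM, and the retinoblastoma gene Rb1 fell to 4.64 and 5.15 FPKM, against 45.8 and 44.9 FPKM. Cdk4, the kinase that inactivates the retinoblastoma protein, rose to 18.9 and 22.7 FPKM, against 0.364 and 3.49 FPKM. Of 6 importin alpha genes, which carry proteins into the nucleus, 2 were higher and 3 lower, or 1 and 3 after median-of-ratios rescaling. The oocyte form Kpna7 stood at 3.34 and 1.27 FPKM against 19.8 and 19.4 FPKM, Kpna3 at 21.6 and 22.1 FPKM against 128 and 110 FPKM, and Kpna4 at 45.6 and 34.5 FPKM against 1.07 and 1.51 FPKM.

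Few of the genes that write or erase H3K27 methylation changed by much, apart from Kdm6b. Of 14 PRC2 subunits and H3K27 demethylases 1 was higher and 4 lower, Kdm6b among them, or 1 and 6 after rescaling. The PRC2 cores Eed (47.0 and 34.8 FPKM at the 4-cell stage, 45.7 and 42.0 FPKM at the 2-cell stage) and Ezh2 (110 and 89.5 FPKM against 111 and 106 FPKM) were not called, although Ezh2 was called lower after either rescaling, with log2 changes of -0.39 and -0.35. Suz12 was lower (179 and 164 FPKM against 371 and 279 FPKM), as were Ezh1 (13.3 and 13.7 FPKM against 24.7 and 23.2 FPKM) and the accessory subunit Phf1, which fell most, to 25.3 and 18.4 FPKM, against 188 and 182 FPKM. E130012A19Rik, which passed at the 4-cell stage alone, rose to 9.74 and 7.25 FPKM, against 1.22 and 0.570 FPKM. The X-linked Kdm6a was not called at 21.8 and 19.1 FPKM against 22.1 and 21.6 FPKM. Its Y-linked relative Uty was not called either, at 2.81 and 4.601 FPKM against 1.82 and 5.64 FPKM.

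Of 32 PRC1 and PR-DUB subunits 7 were higher and 14 lower, or 4 and 13 of the 28 that passed at both stages. Bmi1, a PRC1 subunit, fell to 141 and 123 FPKM at the 4-cell stage, against 835 and 809 FPKM at the 2-cell stage (log2 change -2.63 ± 0.11, adjusted p = 7.17e-09, limma). Bap1, which encodes the PR-DUB deubiquitinase, was lower at 12.8 and 12.6 FPKM against 25.9 and 26.1 FPKM. The paralogues Bcor and Bcorl1 went opposite ways: Bcor stood at 32.4 and 23.9 FPKM against 6.75 and 2.43 FPKM, and Bcorl1 at 3.31 and 5.57 FPKM against 25.4 and 17.6 FPKM. Among DNA methylation genes (8 higher and 4 lower of 16, or 5 and 6 after rescaling) the oxidase gene Tet3 fell to 20.3 and 21.8 FPKM, against 94.6 and 90.1 FPKM. Among H3K4 and H3K9 enzymes (9 higher and 9 lower of 23, or 5 and 12 after rescaling) Ehmt2, which encodes G9a, rose to 20.3 and 16.6 FPKM, against 1.95 and 3.92 FPKM, and Suv39h2 fell to 3.29 and 7.89 FPKM, against 32.6 and 26.8 FPKM.

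Of 34 listed genes known to be silenced on the maternal copy by inherited H3K27 methylation, 10 were members, of which 8 were higher and 1 lower (median 1.59). Xist, Sox21, Gramd1b and Enc1 became members through the 4-cell stage alone, so the rule largely set their direction. Of the 6 that passed at both stages 4 were higher and 1 lower (median 1.02). Xist, the RNA that silences the X chromosome, stood at 25.7 and 5.87 FPKM at the 4-cell stage, against 0.0720 and 0.0139 FPKM at the 2-cell stage. Sox21 stood at 4.57 and 6.77 FPKM and was listed at 0 in both 2-cell libraries, and Gramd1b and Enc1 stood at 8.43 and 7.22 FPKM against 0.447 and 0.856 FPKM and at 5.60 and 8.34 FPKM against 1.93 and 0.834 FPKM. Tshz2 fell to 1.70 and 2.11 FPKM, against 19.97 and 17.1 FPKM. In KDM6B CTR embryos 9 of these 10 genes were higher and 1 lower, with a median of 1.86. Of 17 members imprinted by DNA methylation 5 were higher and 12 lower, or 4 and 7 of the 11 that passed at both stages: Igf2r rose to 111 and 104 FPKM, against 12.9 and 17.7 FPKM, and Mest fell to 0.661 and 4.70 FPKM, against 17.9 and 16.3 FPKM. The table gives both parental copies together, so no allelic share was measured.

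Of 132 developmental regulators of the kind silenced by Polycomb, 26 were members and 27 were listed at 0 in all 4 libraries. Among the members 14 were lower and 8 higher. Of these members 8 passed at the 4-cell stage alone and 15 at the 2-cell stage alone, which largely set their direction. Of the 3 that passed at both stages 2 were lower and 0 higher, so no balance of directions can be read from this list. Foxa1, a factor of endoderm and other epithelia, rose to 22.7 and 18.7 FPKM at the 4-cell stage, against 0.227 and 0 FPKM at the 2-cell stage. Tbx4 fell to 2.64 and 1.09 FPKM, against 32.2 and 22.3 FPKM, Hoxa7 to 0.632 and 1.16 FPKM, against 12.8 and 9.999 FPKM, and Msx1 to 0.612 and 0.758 FPKM, against 8.36 and 7.91 FPKM.

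RNAs other than mRNA also differed by class. All 6 listed RNAs of the signal recognition particle, 7SK, RMRP and RNase P were higher, and they summed to 118400 and 105700 FPKM at the 4-cell stage, against 25470 and 25600 FPKM at the 2-cell stage. Of 206 snoRNA members 92 (44.7%) were higher and 8 (3.88%) lower, and of 174 lincRNA members 44 (25.3%) were higher and 91 (52.3%) lower. Over all members 39.8% were higher and 29.5% lower. The snoRNA and lincRNA counts are as deposited and include members that passed at 1 stage alone, whose direction the rule largely set. Short RNAs are poorly recovered by this kind of library, and the part of that in these values was not tested.

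Markers of other cells were low. Of 16 cumulus and granulosa cell markers 1 was a member, Amhr2, and 5 were at 0 in all 4 libraries. The 16 summed to 17.2 and 20.2 FPKM at the 4-cell stage and to 11.4 and 15.4 FPKM at the 2-cell stage, of which Amhr2 gave 17.0 and 19.8 FPKM and 9.78 and 14.1 FPKM. The 9 sperm markers summed to 0.103 and 1.70 FPKM at the 4-cell stage and to 1.06 and 1.96 FPKM at the 2-cell stage, with 7 at 0. The 7 blood cell markers were at 0 in both 4-cell libraries and summed to 0.216 and 0.120 FPKM at the 2-cell stage.

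Another table of the series holds the same genes in MII oocytes and late 2-cell embryos, with 2 libraries each and no KDM6B label. Whether those embryos were younger or older than the KDM6B OE 2-cell embryos was not tested, so the 2 intervals may overlap. Klf2 stood at 18.7 and 16.9 FPKM in late 2-cell embryos, against 1.01 and 2.69 FPKM in KDM6B OE 2-cell libraries. Ckmt1 stood at 0.0783 and 0 FPKM against 0 and 0.184 FPKM. Of 2673 members with a value there that were at least 2-fold lower at the KDM6B OE 4-cell stage, 46.4% were at least 2-fold lower in late 2-cell embryos than in oocytes and 12.2% were higher. Of 3752 that were at least 2-fold higher, 37.3% had been higher in late 2-cell embryos and 14.2% lower. Over all 12071 members with a value the shares were 29.2% higher and 25.7% lower. Zbed3 stood at 891 and 1027 FPKM in late 2-cell embryos against 3309 and 3609 FPKM in oocytes, and Hand1 at 4.64 and 1.18 FPKM against 0.143 and 0 FPKM. Genes that fell between the KDM6B OE 2-cell and 4-cell stages were thus more often lower in late 2-cell embryos than in oocytes. Those that rose were more often higher there, as shares without a test.

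**Figure D3:**
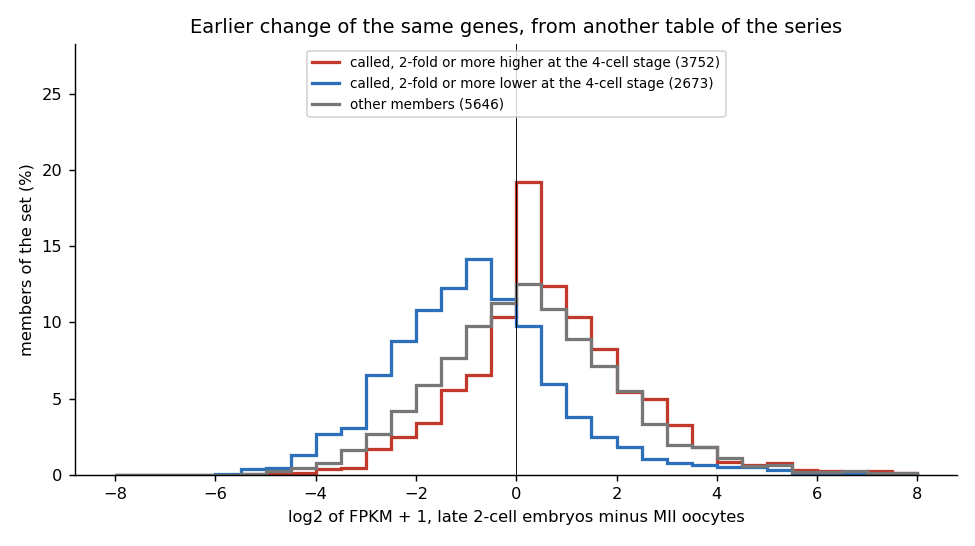
Share of members by their log2 change of FPKM + 1 between late 2-cell embryos and MII oocytes, for members called at least 2-fold higher (red, 3752) or lower (blue, 2673) at the 4-cell stage of KDM6B OE embryos and for the other members (grey, 5646). The blue curve is shifted to negative values (median -0.90), the red one to positive values (median 0.49) and the grey one lies between (median 0.20).

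Was the stage change in KDM6B OE embryos that of KDM6B CTR embryos? Of the 4836 members that were higher in KDM6B OE embryos, 4356 (90.1%) were also called higher in KDM6B CTR embryos, and of the 3590 that were lower, 3118 (86.9%) were also lower. In KDM6B CTR embryos 38% of all genes tested were called higher and 26.1% lower. The shared calls were 83.2% and 87.3% of the members called in that direction in KDM6B CTR. The difference of the 2 stage changes was called for 21 genes, 6 with a higher and 15 with a lower change in KDM6B OE, which is 0.139% of the genes tested (0.0399% higher and 0.0996% lower), and all 21 were members. The count was 2 when only the 8 KDM6B libraries were fitted, and between 1 (without KDM6B CTR 2-cell replicate 2) and 60 members (without KDM6B OE 2-cell replicate 1) when 1 library was left out.

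Rhox9 (chromosome X, 37899097 to 37901770), a homeobox gene of the reproductive Rhox cluster, had the largest positive difference. KDM6B OE embryos had 12.3 and 10.7 FPKM at the 4-cell stage, and both 2-cell libraries listed it at 0. In KDM6B CTR embryos it stood at 0.0679 and 0 FPKM at the 4-cell stage and at 0.0401 and 0 FPKM at the 2-cell stage, and in PR-DUB OE embryos at 1.13 and 0 FPKM at the 4-cell stage. The difference of 3.62 ± 0.40 (log2, adjusted p = 0.00716, limma) was also called with the 8 KDM6B libraries alone (adjusted p = 0.0337), and not with a pseudocount of 0.1 (adjusted p = 0.0646) or without KDM6B CTR 2-cell replicate 2 (adjusted p = 0.0591). Among the 16 libraries a level above 2 FPKM was found only in the 2 KDM6B OE 4-cell ones. Rhox9 became a member through these 2 libraries alone, so the rule largely set the direction of its stage change. Its difference rests on the same 2 libraries.

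Zranb2, a splicing regulator, rose in KDM6B OE embryos to 97.5 and 75.9 FPKM at the 4-cell stage, against 22.2 and 14.7 FPKM at the 2-cell stage, while in KDM6B CTR embryos it stood at 35.1 and 37.1 FPKM against 27.6 and 24.6 FPKM (difference 1.73, adjusted p = 0.0343, limma). Lsm14b, of RNA-protein granules, fell by less in KDM6B OE embryos than in KDM6B CTR embryos (difference 1.57). The calmodulin gene Calm2 had a log2 change of -0.28 in KDM6B OE embryos, which was not called, and of -1.40 in KDM6B CTR embryos (difference 1.13). Among negative differences, Klrg2 stood at 2.78 and 4.91 FPKM against 19.9 and 19.9 FPKM in KDM6B OE embryos and at 4.21 and 7.36 FPKM against 3.91 and 2.75 FPKM in KDM6B CTR embryos (difference -2.76, adjusted p = 0.0356, limma). In PR-DUB OE embryos Klrg2 stood at 5.004 and 7.26 FPKM at the 4-cell stage against 17.5 and 24.3 FPKM at the 2-cell stage, so here the KDM6B CTR 2-cell level stands apart. Angel1, of the CCR4 protein family, fell in KDM6B OE embryos to 0.579 and 0.561 FPKM at the 4-cell stage, against 15.5 and 16.7 FPKM at the 2-cell stage, and to 3.71 and 3.17 FPKM against 10.3 and 9.01 FPKM in KDM6B CTR embryos (difference -2.18). For Scd1, which desaturates fatty acids, C130074G19Rik and Snrpb, a core Sm protein, the change in KDM6B OE embryos was below the rise in KDM6B CTR embryos (differences -1.70, -1.70 and -1.64), and for Scd1 it was not itself called.

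Jade3 is X-linked and fell in KDM6B OE embryos, to 2.51 and 2.55 FPKM at the 4-cell stage against 22.7 and 13.8 FPKM at the 2-cell stage, with 10.1 and 11.3 FPKM against 17.2 and 15.1 FPKM in KDM6B CTR embryos (difference -1.86, adjusted p = 0.0493, limma). Its call was lost under either rescaling, with the 8 KDM6B libraries alone, and in 7 of the 8 fits that left out 1 of them. Of the 15 genes with a lower change 3 were X-linked, Jade3, Uba1 and Hcfc1, the last 2 named here after their values were seen, and the X chromosome as a whole lay low in the KDM6B OE 4-cell libraries. Of 426 X-linked members 136 were higher and 149 lower in KDM6B OE embryos (median -0.16), against 196 and 111 in KDM6B CTR embryos (median 0.52). For 11603 autosomal members the medians were 0.28 and 0.35. The difference of stage changes, KDM6B OE minus KDM6B CTR, had a median of -0.44 on the X chromosome, where 74.9% of members lay below 0, and medians of -0.14 to 0.03 on the 19 autosomes. The X median was -0.33 and -0.51 after the 2 rescalings.

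The sex of the pooled embryos was not labelled, and transcripts of the Y chromosome moved with this pattern. The 4 Y-linked genes Eif2s3y, Ddx3y, Kdm5d and Uty summed to 16.6 and 27.7 FPKM in KDM6B OE 4-cell libraries, 6.63 and 13.2 FPKM in KDM6B OE 2-cell libraries, 7.44 and 0.162 FPKM in KDM6B CTR 4-cell libraries and 9.06 and 15.0 FPKM in KDM6B CTR 2-cell libraries. The library with the most Y-linked RNA, KDM6B OE 4-cell replicate 2, had the lowest X-linked level of the 16, and the library with the least, KDM6B CTR 4-cell replicate 2, had the highest. At the 4-cell stage Xist stood at 25.7 and 5.87 FPKM in KDM6B OE and at 3.36 and 13.0 FPKM in KDM6B CTR embryos, so those groups overlapped. With 2 libraries a group, the share of male embryos and an effect of the treatment on the X chromosome cannot be told apart.

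**Figure D4:**
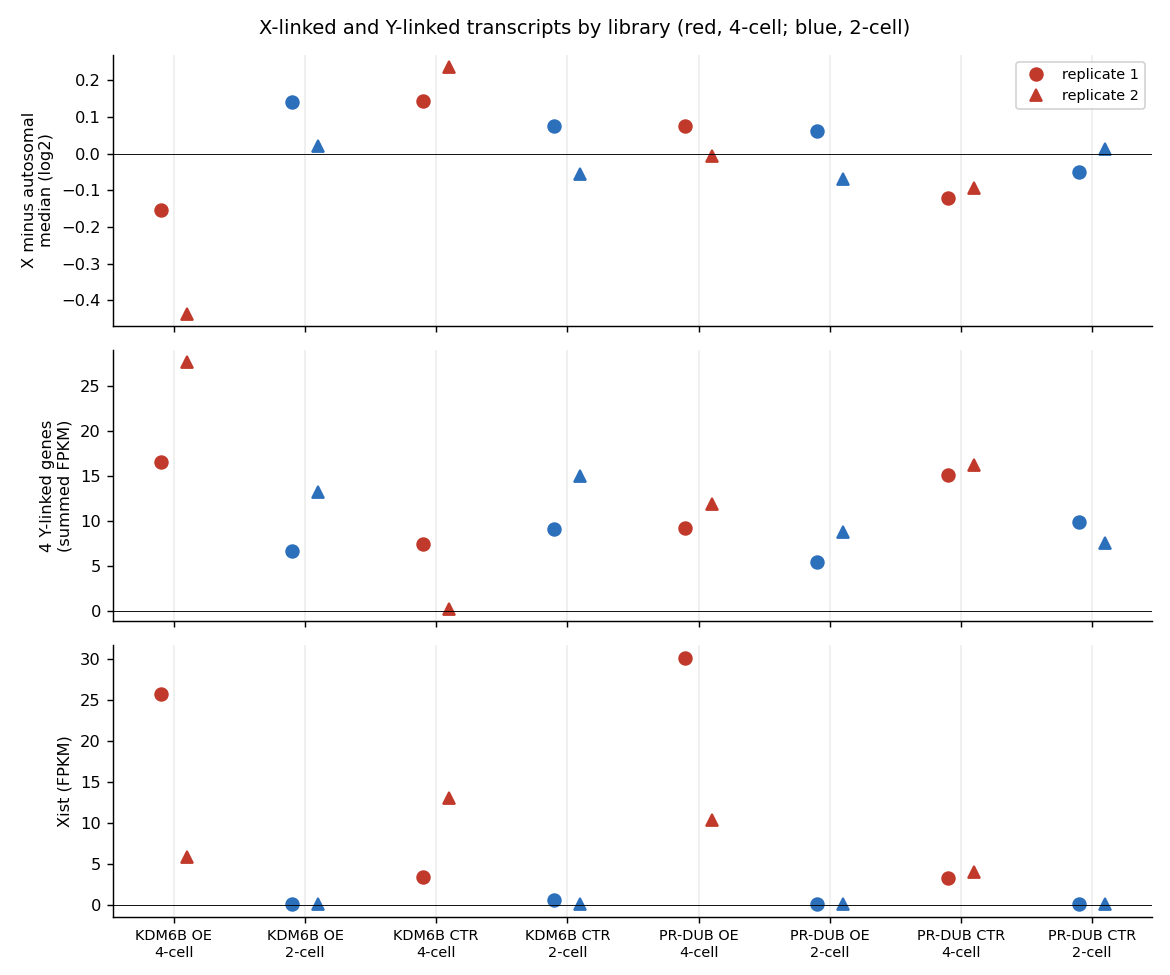
For each of the 16 KDM6B and PR-DUB libraries, the median deviation of X-linked members from their mean over the libraries minus that of autosomal members (top, log2), the summed FPKM of 4 Y-linked genes (middle) and the FPKM of Xist (bottom); circles are replicate 1, triangles replicate 2, red 4-cell and blue 2-cell. The KDM6B OE 4-cell libraries lie lowest in the top panel, at -0.15 and -0.44, and highest in the middle one, at 16.6 and 27.7 FPKM.

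PR-DUB OE embryos, which overexpress another chromatin enzyme, gave a second comparison. Of the members higher in KDM6B OE embryos 65.4% were also called higher in PR-DUB OE, and of those lower 80.5% were also lower. In PR-DUB OE embryos 29.3% of all genes tested were called higher and 28.8% lower. The shared calls were 84% and 73.3% of the members called in that direction in PR-DUB OE embryos. The difference of stage changes, KDM6B OE minus PR-DUB OE, was called for 2193 members, 1691 with a higher and 502 with a lower change in KDM6B OE, where 15.9% of all genes tested were called, 11.5% as higher and 4.32% as lower. After median-of-ratios rescaling these were 1002 and 787 members, and the median difference of all genes tested was -0.04, against 0.16 as deposited. The count fell to 1192 members without KDM6B OE 2-cell replicate 1, to 1309 or 1289 without either PR-DUB OE 2-cell replicate and to 1326 without PR-DUB OE 4-cell replicate 1. The PR-DUB embryos were sequenced within 1 side of the instrument split and the KDM6B embryos across it, so the difference of treatments and this split cannot be told apart here.

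Transient 2-cell genes showed such differences. Their median change was -1.41 in KDM6B OE embryos, -2.10 in KDM6B CTR embryos, 0.33 in PR-DUB OE embryos and 0.42 in PR-DUB CTR embryos, and 7 of 39 had a lower and 1 a higher change in KDM6B OE than in PR-DUB OE. Usp17la stood at 0 and 1.93 FPKM at the 4-cell stage against 17.7 and 11.9 FPKM at the 2-cell stage in KDM6B OE embryos, and at 38.4 and 12.4 FPKM against 8.59 and 4.98 FPKM in PR-DUB OE embryos (difference -4.78, adjusted p = 0.00212, limma). Usp17le of the same family, whose copies share reads, had a difference of -3.70. Hspa2, a chaperone gene, stood at 15.6 and 7.08 FPKM against 101 and 71.6 FPKM in KDM6B OE embryos and at 18.7 and 22.1 FPKM against 6.68 and 8.71 FPKM in PR-DUB OE embryos (difference -4.21). For both, the 2-cell level in KDM6B OE embryos was above that in PR-DUB OE embryos. Gadd45a, a growth arrest gene, stood at 12.4 and 11.2 FPKM against 6.65 and 5.58 FPKM in KDM6B OE embryos and at 2.15 and 1.41 FPKM against 19.3 and 15.1 FPKM in PR-DUB OE embryos (difference 3.56, adjusted p = 9.52e-05, limma). In KDM6B CTR and PR-DUB CTR embryos the changes were -3.67 and 1.04 for Usp17la, -2.87 and 1.29 for Hspa2 and 0.22 and -1.34 for Gadd45a, so the controls of both sets also lay apart.

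Other lists differed as well. Of 59 core histone genes 24 had a higher and 1 a lower change in KDM6B OE than in PR-DUB OE embryos, of 68 ribosome biogenesis factors 24 had a higher and 1 a lower change, and of 18 replication licensing genes 8 had a higher and 0 a lower change. The KDM6B CTR and PR-DUB CTR embryos lay apart in the same direction. Core histone genes had median changes of 0.88 in KDM6B OE, 0.68 in KDM6B CTR, -0.31 in PR-DUB OE and 0.23 in PR-DUB CTR embryos. Ribosome biogenesis factors had medians of 1.35, 1.73, 0.89 and 0.81 in that order, and replication licensing genes of 0.85, 1.07, 0.09 and 0.23. In each of these lists both KDM6B medians were above both PR-DUB medians. The PR-DUB sets also lay apart for core histone genes, with 6 higher and 23 lower in PR-DUB OE and 15 higher and 14 lower in PR-DUB CTR embryos. Ribosomal protein genes, by contrast, had 2 higher and 4 lower of 81, with a median change of 2.28 in PR-DUB OE embryos beside 2.13 in KDM6B OE embryos. The signal recognition particle RNAs Rn7s1 and Rn7s2 rose in KDM6B OE embryos by 3.13 and 4.73 (log2), and their changes in PR-DUB OE embryos were 0.11 and 1.003. In KDM6B CTR embryos, across the same split, their changes were 2.99 and 4.45.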

How the data were processed

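Low-input stranded RNA-seq (paired-end, 76 bp) of pooled embryos was analysed from the deposited gene tables. Per the submitters' processing notes, the authors quantified genes with StringTie 1.3.3b after Trim Galore 0.6.5 and HISAT2 2.1.0, on mm10. The deposited values are FPKM per gene. Their gene annotation was not given in the sources. Of 46078 identifiers 45229 were found in GENCODE vM21, which gave positions and biotypes, and 27 gene names turned into dates were restored. No column was left out.

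FPKM were transformed to log2(FPKM + 1), which understates changes of low genes. Genes with at least 1 FPKM in at least 2 of 16 libraries (15055) were fitted with limma 3.58.1 (R 4.3.3; 8 group means, moderated trended variance, 8 residual degrees of freedom, Benjamini-Hochberg adjustment over all genes tested). Both differences of stage changes are contrasts of that fit. The fit was tested on simulated data. Alternatives were 2 rescalings, a pseudocount of 0.1, no filter, members only, fewer libraries, each library left out and a replicate block.

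Members and gene lists were chosen with earlier results of these data known. Named were the 12 called protein-coding genes with the largest changes each way, up to 3 called each way per list, up to 6 each way per difference, H3K27 enzymes, the 5 most abundant per stage and genes at the membership threshold. Fold values are ratios of mean FPKM. Promoters were matched by symbol or RefSeq synonym.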

Additional observations from a re-analysis of the deposited data

Results flagged for a closer look

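The stage change differed between KDM6B OE and KDM6B CTR embryos for 21 members, and between KDM6B OE and PR-DUB OE embryos for 2193, each by a test of the difference itself in limma with adjustment over all genes tested. Against KDM6B CTR embryos, the log2 differences of the named genes were 3.62 for Rhox9, 1.73 for Zranb2, 1.57 for Lsm14b and 1.13 for Calm2. They were -2.76 for Klrg2, -2.18 for Angel1, -1.86 for Jade3, -1.70 for Scd1, -1.70 for C130074G19Rik and -1.64 for Snrpb. When only the 8 KDM6B libraries were fitted, Rhox9 was the named gene that kept its call.

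Against PR-DUB OE embryos, the largest positive log2 differences were 3.85 for Arhgef40, 3.73 for Gm13697, 3.67 for Gm21994, 3.56 for Gadd45a, 3.56 for Gm2042 and 3.47 for 1700047I17Rik2. The largest negative ones were -4.78 for Usp17la, -4.21 for Hspa2, -3.70 for Usp17le, -3.64 for Creg1, -3.41 for Gm13119 and -3.37 for Tmem92. Creg1 stood at 1.62 and 1.21 FPKM at the 4-cell stage against 1.83 and 1.28 FPKM at the 2-cell stage in KDM6B OE embryos, and at 20.2 and 20.6 FPKM against 0.840 and 0.802 FPKM in PR-DUB OE embryos. Gm13119 was likewise level in KDM6B OE embryos (7.26 and 8.51 FPKM against 7.05 and 8.12 FPKM). Tmem92 stood at 2.08 and 5.41 FPKM against 62.2 and 80.7 FPKM in KDM6B OE embryos.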

How the results depend on the processing

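The members called in the KDM6B OE stage change numbered 8426, and 6474 to 8614 under the alternatives without a left-out library. Leaving out 1 library gave 7147 to 7728. For the difference from KDM6B CTR, 21 members were called, 2 with the 8 KDM6B libraries only, and 1 to 60 with 1 library left out. For the difference from PR-DUB OE, 2193 were called and 1192 to 2062 with 1 library left out. Replicate numbers did not pair the samples: deviations of same-numbered libraries correlated between -0.06 and 0.04. A replicate block gave 8373 members in the stage change, 8 in the difference from KDM6B CTR and 2049 in the difference from PR-DUB OE. At an unadjusted p under 0.05 the difference from KDM6B CTR held 1983 of all genes tested.

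Among gene lists, medians changed sign for linker histones and histone variants (-0.01 after median-of-ratios rescaling, 10 called) and for cell cycle regulators (-0.22 with 21 called and -0.17 with 20 called after the 2 rescalings). Uty changed sign, with log2 changes of -0.11 and -0.065 after the rescalings and of -0.52 to 0.71 with 1 library left out. With 1 library left out, Eed ranged over -0.32 to 0.10 and Ezh2 over -0.27 to 0.020, both positive without KDM6B OE 4-cell replicate 2. None of these 3 genes was called as deposited, and the cause was not tested. With 2 libraries a group, a left-out library leaves a lone one that is assumed to vary like the other groups.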
